A study of Equus caballus with 78 samples.

Results

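The microRNAs described here are the horse forms of miR-28 and miR-151, listed as eca-miR-28-3p, eca-miR-28-5p and eca-miR-151-5p. They make up 3 of 690 horse microRNA names, of which 270 had a read in some library. They were chosen by name, with their measured levels and the libraries holding their reads in plasma and in both joints already known, so levels across fluids, joints and time points are descriptions and carry no test. The data are small RNA reads from extracellular vesicles, lipid-membraned packets shed by cells, of 4 horses (horses 2, 4, 6 and 8) in a model of osteoarthritis. The groups were 26 libraries of plasma, 26 of synovial fluid from a joint labelled OA and 26 of synovial fluid from a joint labelled CTRL. Each fluid was sampled at 7 time points labelled 0, 10, 35, 42, 49, 56 and 63 with no unit, with 3 or 4 horses in each of the 21 groups. Horse 4 has no library here at time point 10, nor horse 2 at 63. The plasma and CTRL-joint libraries come from the same 4 horses as the OA-joint libraries, so all groups share whatever was done to the horse. How osteoarthritis was brought about is not in the labels, nor are the ages of the horses.

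A microRNA is cut from a hairpin-shaped precursor, and either arm of the hairpin, named 5p or 3p, can be kept as the mature strand that silences messenger RNAs. The miR-28 and miR-151 hairpins derive from an old mobile element, the L2 repeat, as do those of miR-708 and miR-95. In humans the miR-28 gene lies in an intron of LPP and the miR-151 gene in an intron of PTK2, which codes for focal adhesion kinase. In mouse and human lymphocytes miR-28 is known as a brake on germinal centre B cells, and miR-151 has been studied mainly in tumour cell migration. The 2 arms of miR-28 have different seeds, the short stretch that selects targets, and miR-28-5p shares its seed with miR-708.

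Depth differed between fluids more than between joints. Library totals ran from 2029244 to 12613572 reads, of which microRNA reads made up 3916 to 1865513 in plasma (median 14055), 11494 to 80090 in OA joints (median 42865.5) and 4342 to 240294 in CTRL joints (median 26141). In 3 plasma libraries (horse 2 at time point 0, horse 6 at 10 and horse 8 at 63) microRNA was over 5% of the library total, and their share of the plasma microRNA reads was 84.1%. By a number in the deposited file names, read here as the sequencing lane, all 26 plasma libraries were in lane 1, against 2 of 26 OA and 8 of 26 CTRL libraries, so plasma and lane can hardly be told apart. The unit of level is CPM, with the microRNA reads of a library as the divisor, and means are over 4 horses, each the mean of its libraries. A read makes a larger CPM in a shallow library: 3 reads in a library of median depth were 213 CPM in plasma, 70.0 in OA joints and 115 in CTRL joints, and 766 CPM in the shallowest plasma library. The reads carry no molecular identifiers, so floors and intervals cover counting error only, and fewer vesicles of a source and less RNA per vesicle cannot be told apart.

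The fluids carried different mixtures of cell-type microRNAs. The 7 erythrocyte microRNAs of a fixed list (miR-486, miR-451, miR-144 and others) took a median of 47.3% of microRNA reads in plasma (2.27 to 78.8%), against 13.1% in OA joints (4.32 to 24.0%) and 15.3% in CTRL joints (5.06 to 42.0%). The 3 microRNA-rich plasma libraries lay far below that plasma median. Their erythrocyte reads were 16707 of 260030 microRNA reads in horse 2, 20667 of 613396 in horse 6 and 42318 of 1865513 in horse 8. The 10 mesenchymal microRNAs, which mark fibroblast-like cells such as those of the joint lining, took a median of 4.67% in plasma (0.277 to 14.5%), against 21.7% in OA joints (9.62 to 33.7%) and 20.3% in CTRL joints (5.23 to 31.1%). The medians of the 5 lymphocyte microRNAs lay closer together, at 2.12% in plasma, 1.85% in OA joints and 1.97% in CTRL joints. The 6 platelet microRNAs had medians of 4.34% in plasma, 4.15% in OA joints and 4.89% in CTRL joints, and the 5 myeloid microRNAs 0.651% in plasma, 1.69% in OA joints and 1.37% in CTRL joints. The part of these mixtures in the levels below was not tested.

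miR-28-3p was the most widely read of the 3, and its mean level was higher in the fluid of both joints than in plasma. It had reads in 16 of 26 plasma libraries, 23 of 26 OA libraries and all 26 CTRL libraries. Its mean level was 1612 ± 859 CPM in plasma, 7009 ± 607 CPM in OA joints and 7418 ± 1448 CPM in CTRL joints (SD, n = 4 horses), which placed it 53rd among the microRNAs of plasma, 30th in OA joints and 28th in CTRL joints. Plasma was lowest, and the OA and CTRL joints lay within 1 SD of each other, while the highest plasma horse (2896 CPM) lay below the lowest joint value (5889 CPM, CTRL joint of horse 6). The individual horses 2, 4, 6 and 8 had means of 1267, 1178, 1107 and 2896 CPM in plasma, 6338, 7122, 7780 and 6795 CPM in OA joints, and 8715, 8592, 5889 and 6476 CPM in CTRL joints.

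**Figure D1:**
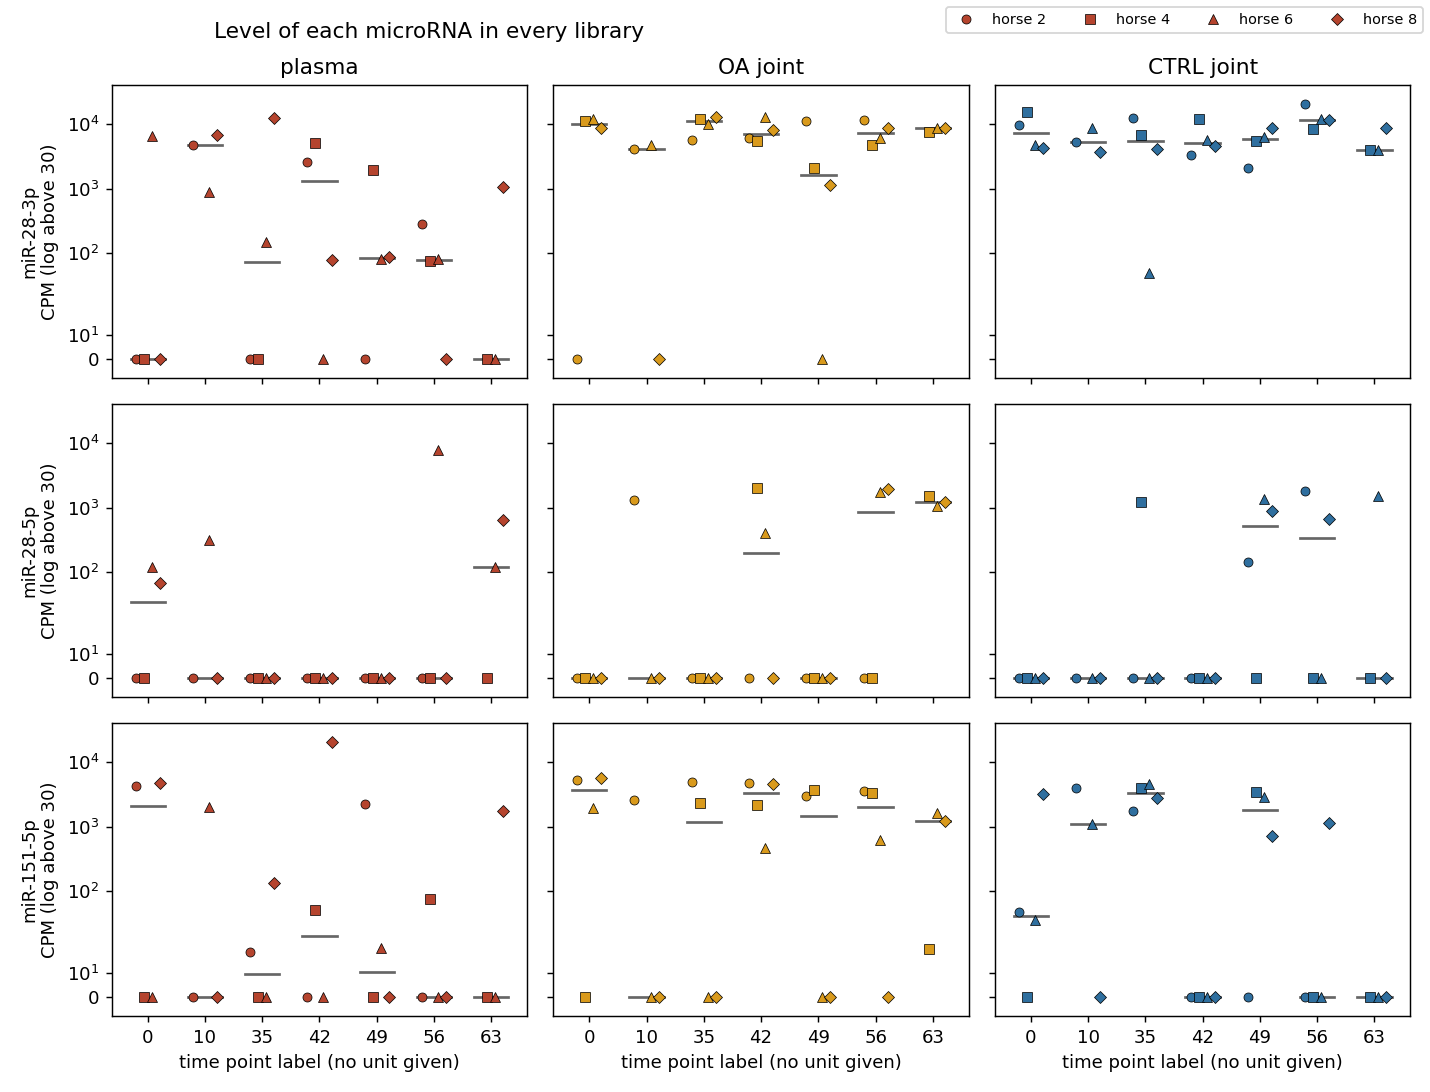
Level of each microRNA in every library, in CPM (log scale above 30, 0 at the bottom), by time point label, with plasma left, OA joint in the middle and CTRL joint right; marker shapes are horses and grey bars are medians of a group. miR-28-3p fills both joints at nearly every time point and is scattered down to 0 in plasma, miR-28-5p is at 0 in most libraries, and miR-151-5p lies either at or near 0 or at a high level.

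In plasma miR-28-3p varied widely between libraries. The median library had 81.7 CPM and the highest, horse 8 at time point 35, had 12285 CPM from 90 reads. Of the 26 plasma libraries, 10 had 0 reads, 7 had 1 to 9 reads and 9 had 10 or more, whereas no OA library and 1 CTRL library had 1 to 9 reads. The median microRNA depth of plasma libraries was 31900.5 reads where miR-28-3p was at 0 and 12716.5 where it was read. The part of depth was not tested. At time point 10 all 3 plasma libraries held it, with 156, 542 and 34 reads in horses 2, 6 and 8. At time point 0 it was read in 1 of 4 (54 reads in horse 6), and at 63 in 1 of 3 (1973 reads in horse 8).

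In OA fluid libraries held either 0 reads or at least 24. The 3 OA libraries at 0 were horse 2 at time point 0, horse 8 at 10 and horse 6 at 49, and at the mean OA level their depths would hold 168 to 286 reads. The other OA libraries held 24 to 904 reads. In CTRL fluid the one library under 10 reads was horse 6 at time point 35, with 1 read, and the others held 38 to 1455. At the median library the level was 7701 CPM in OA joints and 5929 CPM in CTRL joints.

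**Figure D2:**
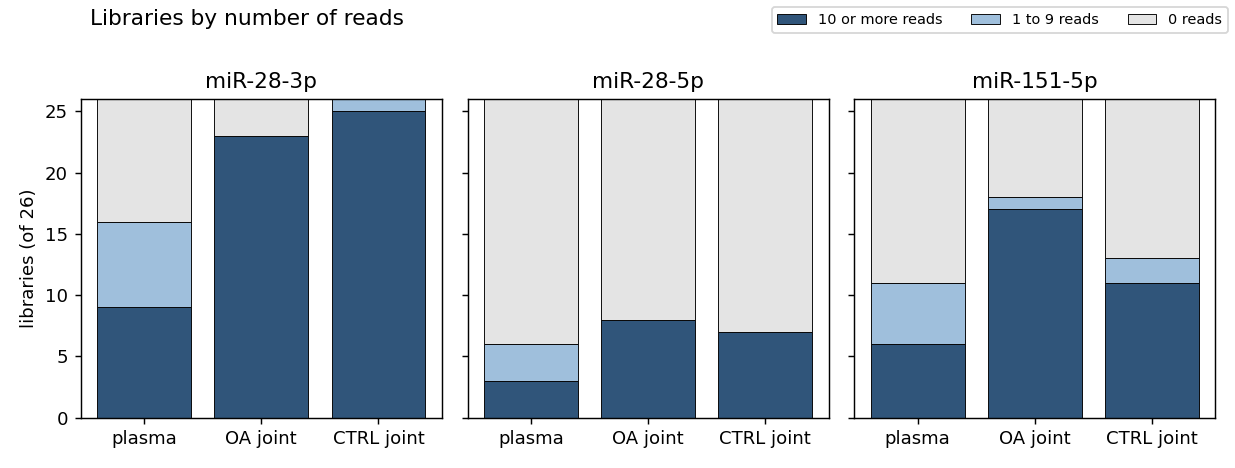
Number of libraries, of 26 per fluid, with 10 or more reads, 1 to 9 reads or 0 reads of each microRNA, with plasma left of OA joint and CTRL joint. Joint libraries hold either 0 or at least 10 reads with few exceptions, while 7 plasma libraries hold 1 to 9 reads of miR-28-3p and 5 hold 1 to 9 reads of miR-151-5p.

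As a description of the fluid contrast, counts were summed per horse and fluid (4 sums against 4) and fitted with edgeR's quasi-likelihood model over all microRNAs. The plasma sums of horses 2, 6 and 8 each include a microRNA-rich library, with few erythrocyte reads for plasma. miR-28-3p was lower in plasma than in CTRL joints by a log2 fold of -3.00 (SE 0.57) and than in OA joints by -2.74 (SE 0.52). miR-28-5p had log2 folds of 0.12 (SE 2.12) for plasma over CTRL and -0.59 (SE 2.01) for plasma over OA. miR-151-5p had log2 folds of 0.66 (SE 1.15) for plasma over CTRL and -0.01 (SE 1.16) for plasma over OA. The median log2 fold over all microRNAs tested was -0.16 against CTRL and 0.11 against OA. By edgeR's adjusted p under 0.05, 1 of the 3 was called in each comparison, beside 21.4% of 126 microRNAs against CTRL (11.1% lower in plasma) and 24.6% of 126 against OA (9.52% lower in plasma). The members were chosen with these levels known, so nothing is read from that count.

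The size of these folds depended on the libraries and on the scale. Without the 3 microRNA-rich plasma libraries the log2 fold of miR-28-3p was -1.98 against CTRL and -2.19 against OA. Neither passed the threshold, while 2 of 106 microRNAs were called against CTRL and 22 of 107 against OA. Within lane 1 alone its log2 fold of plasma over CTRL was -3.43, and it missed the threshold as well. So did the fold without horse 6 (-2.65). In those settings 1 of 123 and 9 of 128 microRNAs were called. Limma on the mean log2(CPM + 1) of each horse, which weights every library equally, gave miR-28-3p -6.63 against CTRL and -5.50 against OA, and miR-151-5p -1.30 against CTRL and -3.96 against OA. With the horse as a block miR-28-5p had -2.81 (SE 3.98) against CTRL and -3.56 (SE 4.94) against OA. On the other scale deposited, RPM of the whole library total, miR-28-3p averaged 14.3 ± 12.9 in plasma, 39.6 ± 11.3 in OA joints and 38.9 ± 10.4 in CTRL joints (SD, n = 4 horses). Its plasma mean was 824 CPM on counts summed per horse and 756 CPM without libraries under 10000 microRNA reads, against 1612 CPM as a mean of all libraries. With the erythrocyte microRNAs left out of the divisor the plasma mean was 3137 CPM, which was still below the OA mean of 7987 CPM on the same scale.

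miR-28-5p, the other strand of the same hairpin, was far rarer in reads. It was read in 6 of 26 plasma libraries, 8 of 26 OA libraries and 7 of 26 CTRL libraries, and its median was 0 CPM in all 3 fluids. Its mean level was 326 ± 585 CPM in plasma, 429 ± 151.2 CPM in OA joints and 291 ± 95.7 CPM in CTRL joints (SD, n = 4 horses), and the distances between fluids were within the plasma spread. The order turned with the scale: RPM of the library total averaged 6.41 ± 8.24 in plasma, 2.36 ± 0.763 in OA joints and 1.34 ± 0.428 in CTRL joints, and with erythrocyte microRNAs out of the divisor the means were 675 CPM in plasma, 485 CPM in OA joints and 331 CPM in CTRL joints. The plasma RPM mean rested largely on 2 microRNA-rich libraries, horse 6 at time point 10 (41.5 RPM) and horse 8 at 63 (121 RPM). The median library had 0 RPM in all 3 fluids. The plasma mean in CPM rested on horse 6, whose mean was 1201 CPM, and without that horse it was 34.1 CPM. Horses 2 and 4 had no read of miR-28-5p in any plasma library.

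The plasma reads came from few libraries. Horse 8 at time point 63 had 1208 reads, horse 6 at time point 10 had 194, and horse 6 at time point 56 had 97, while 3 libraries had 1 read each and the other 20 had none. The first 2 of these are microRNA-rich libraries, and the rich libraries together held 93.3% of all plasma reads of miR-28-5p, against 84.2% for miR-28-3p and 88.1% for miR-151-5p. In the joints, by contrast, every library that held miR-28-5p held at least 17 reads, with 17 to 96 in OA joints and 25 to 86 in CTRL joints.

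Reads of miR-28-5p in the joints lay mostly at the later time points. All 8 joint libraries at time point 0 had 0 reads. In the OA joint 1 of 11 libraries at time points 0 to 35 had reads, and 7 of 15 at time points 42 to 63 did. In the CTRL joint the counts were 1 of 11 libraries at time points 0 to 35 and 6 of 15 at 42 to 63. At time point 63 all 3 OA libraries held it, with 74, 66 and 89 reads (1488, 1068 and 1238 CPM) in horses 4, 6 and 8, against 0, 36 and 0 reads in the CTRL joints of those horses. At time point 49 the joints were the other way round, with 0 reads in all 4 OA libraries and 35, 0, 31 and 37 reads in the CTRL libraries of horses 2, 4, 6 and 8. Over the 26 pairs of joints of the same horse and time, the OA joint was higher in 7, lower in 6 and equal at 0 in 13. The groups of time points 0 to 35 and 42 to 63 were formed after the values were seen and get no test. In OA joints the median microRNA depth was 48234 reads where miR-28-5p was read and 39583.5 where it was at 0. In CTRL joints these were 24121 and 27371. The part of depth was not tested.

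miR-28-5p was never read in joint fluid without miR-28-3p. Of the 52 joint libraries, 15 held both arms, 34 held miR-28-3p only, 0 held miR-28-5p only and 3 held neither. Since 49 of the 52 held miR-28-3p, this left little room for another outcome. In plasma 4 libraries held both arms, 12 held miR-28-3p only, 2 held miR-28-5p only (1 read each) and 8 held neither. The share of the 5p arm among the reads of both arms shows how strongly one strand outweighed the other.

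Where each arm had at least 10 reads, the 3p arm was the larger in every library. The 5p share in these libraries was 26.4 and 38.0% in 2 plasma libraries, 3.04 to 26.9% in 8 OA libraries (median 17.7%) and 5.58 to 27.3% in 7 CTRL libraries (median 9.20%). Pooled over libraries with at least 10 reads of both arms together, the 5p share was 33.5% in plasma (1500 reads of miR-28-5p and 2976 of miR-28-3p), 6.09% in OA joints (554 reads of miR-28-5p and 8537 of miR-28-3p) and 3.37% in CTRL joints (283 and 8110 reads). The plasma share rests mainly on the 2 rich libraries, horse 6 at time point 10 and horse 8 at 63. A single plasma library went the other way: horse 6 at time point 56 had 97 reads of miR-28-5p and 1 of miR-28-3p, a 5p share of 98.98% (exact 95% binomial interval 94.4 to 99.97%). It was the only one of 10 plasma libraries above 50%, and none of the 23 OA or 25 CTRL libraries with at least 10 reads of both arms together was above it.

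**Figure D3:**
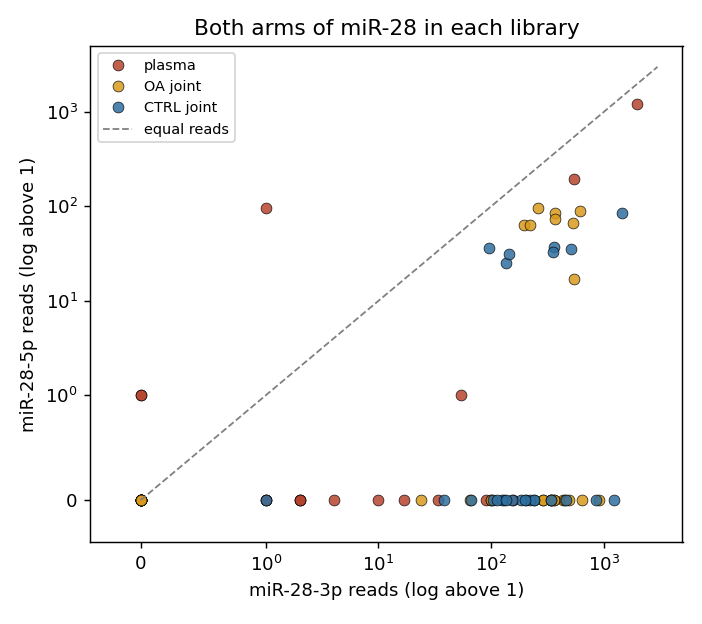
Reads of miR-28-5p against reads of miR-28-3p in each library (both axes log above 1, with 0 at the edge), coloured by fluid; the dashed line marks equal reads. Every joint library lies below the line or at 0 for both arms, and 1 plasma library with 97 reads of miR-28-5p and 1 read of miR-28-3p lies far above it.

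Other microRNAs of the same repeat or seed were sought from a list of 8 names, of which miR-708 and miR-95 are in the files. miR-708, which shares the miR-28-5p seed, had 1005 reads in plasma of horse 6 at time point 10, 1433 reads in plasma of horse 8 at 63 and 1 read in plasma of horse 6 at 63. It had no read in the 26 OA libraries and 1 read in the 26 CTRL libraries. miR-95 had 100 reads and 14 reads in those same 2 rich plasma libraries and none elsewhere. Of the microRNAs with the shared seed, miR-28-5p was read in 15 joint libraries and miR-708 in 1, while in the 2 rich plasma libraries miR-708 had more reads than miR-28-5p.

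miR-151-5p lay between the arms of miR-28 in how often it was read. It had reads in 11 of 26 plasma libraries, 18 of 26 OA libraries and 13 of 26 CTRL libraries. Its mean level was 1314 ± 1762 CPM in plasma, 2064 ± 1405 CPM in OA joints and 1133 ± 130 CPM in CTRL joints (SD, n = 4 horses), and its median library had 0 CPM in plasma, 1804 CPM in OA joints and 18.3 CPM in CTRL joints. The spread between horses in plasma and in OA joints exceeded the distance between their means. The order of these means turned with the scale: RPM of the library total averaged 34.7 ± 24.2 in plasma, 11.8 ± 10.6 in OA joints and 6.33 ± 1.74 in CTRL joints. The plasma RPM mean rested largely on the 3 microRNA-rich libraries, at 245, 260 and 328 RPM. The median library had 0 RPM in plasma, 7.25 RPM in OA joints and 0.066 RPM in CTRL joints. With erythrocyte microRNAs out of the divisor the means were 2988 CPM in plasma, 2385 CPM in OA joints and 1348 CPM in CTRL joints, and without libraries under 10000 microRNA reads they were 2197 CPM in plasma and 2064 CPM in OA joints.

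In plasma the values again came from a few libraries. Horse 8 at time point 42 had 525 reads, which made 20408 CPM and was the highest level of any of the 3 microRNAs in any library; the same library had 2 reads of miR-28-3p and 0 of miR-28-5p. The 3 rich libraries held 1086 reads (horse 2 at time point 0), 1217 reads (horse 6 at 10) and 3285 reads (horse 8 at 63), at 1761 to 4176 CPM. Without horse 8 the plasma mean was 462 CPM, against 1314 CPM with it. In the rich library of horse 2 at time point 0, miR-151-5p had 1086 reads while both arms of miR-28 had 0. The other plasma libraries with reads held 70 (horse 8 at 0), 152 (horse 2 at 49) or 1 read, the last in 5 libraries.

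In the OA joint miR-151-5p differed between horses in how often it was read. Horse 2 had reads in 6 of 6 OA libraries, at 2598 to 5309 CPM, horse 4 in 5 of 6, horse 6 in 4 of 7 and horse 8 in 3 of 7. The OA means of horses 2, 4, 6 and 8 were 4010, 1936, 673 and 1637 CPM, while their CTRL means were 954, 1235, 1221 and 1122 CPM. Horse 2 thus had the highest mean in the OA joint and the lowest in the CTRL joint. Its CTRL joint had reads in 3 of 6 libraries. The highest single OA library was of horse 8, at 5702 CPM.

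**Figure D4:**
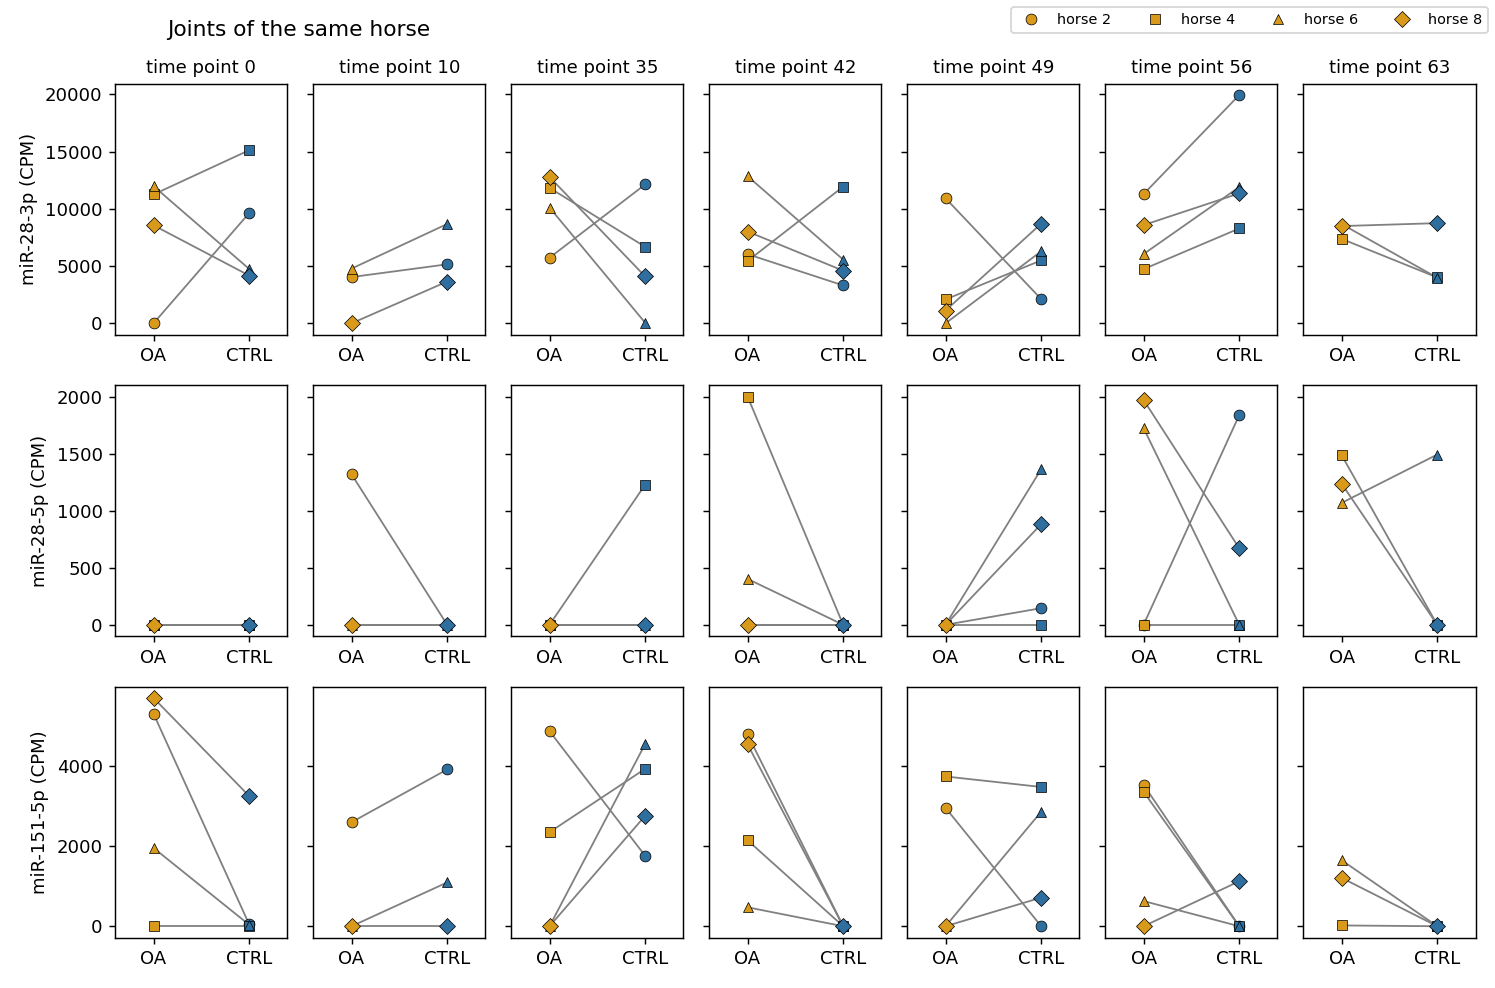
Level in CPM of each microRNA in the OA joint (left of each panel) and the CTRL joint (right) of the same horse, 1 column per time point; lines join the joints of a horse. miR-151-5p lies above 0 in all 4 OA joints and at 0 in all 4 CTRL joints at time point 42, and miR-28-3p lies lower in all 4 OA joints at time point 56.

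The time points of miR-151-5p reads differed between the joints. At time point 42 the OA libraries of horses 2, 4, 6 and 8 had 360, 103, 20 and 281 reads, and the 4 CTRL libraries had none. At time point 63 the OA libraries of horses 4, 6 and 8 had 1, 102 and 87 reads, and the 3 CTRL libraries had none. By counting error alone, a count of 0 allowed up to 19.4 CPM over the CTRL group at time point 42 and up to 38.0 CPM at 63. The OA mean was 2989 CPM at time point 42 and 960 CPM at 63. Libraries at 0 were more frequent than counting error gives, with 13 of 26 CTRL libraries against 0.0072 expected at the mean CTRL level. Those limits are therefore no firm bound on the level in the fluid. At time point 35 the joints were the other way round, with 244, 57, 0 and 0 reads in OA libraries of horses 2, 4, 6 and 8 and 179, 80, 92 and 124 reads in CTRL libraries.

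At time point 0 the OA joint held more miR-151-5p than the CTRL joint in 3 of 4 horses. The OA libraries of horses 2, 4, 6 and 8 had 130, 0, 55 and 243 reads, and the CTRL libraries had 1, 0, 1 and 81. At time point 56 the OA libraries had 283, 71, 23 and 0 reads and the CTRL libraries 0, 0, 0 and 144. The CTRL libraries of horses 2, 4 and 6 at time point 56 were in lane 1, with 17952, 13515 and 11341 microRNA reads. The CTRL library of horse 8 (128178 microRNA reads) and the OA libraries of that time point were in lane 2. Counted over time points 0 to 35, 6 of 11 OA libraries and 9 of 11 CTRL libraries held miR-151-5p. Over 42 to 63, 12 of 15 OA libraries and 4 of 15 CTRL libraries did. Counted among them are libraries with only 1 read: the CTRL joints of horses 2 and 6 at time point 0 and the OA joint of horse 4 at 63. Over all 26 pairs the OA joint was higher in 16, lower in 8 and equal at 0 in 2. These groups of time points were formed after the values were seen and get no test.

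Depth and lane stood beside this difference. The median microRNA depth was 42865.5 reads in OA libraries and 26141 in CTRL libraries, and within a joint it was higher where miR-151-5p was read: 48234 against 39583.5 reads in OA joints, and 41915 against 22468 in CTRL joints. Within lane 2, miR-151-5p was read in 16 of 24 OA libraries and 10 of 18 CTRL libraries, with mean levels over libraries of 2072 CPM in OA and 1419 CPM in CTRL. Within lane 1 it was read in 2 of 2 OA libraries and 3 of 8 CTRL libraries. At the mean level of its joint, the libraries at 0 would hold 47.8 to 143 reads in OA joints and 4.93 to 273 in CTRL joints. The part of depth and lane in the difference was not tested.

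**Figure D5:**
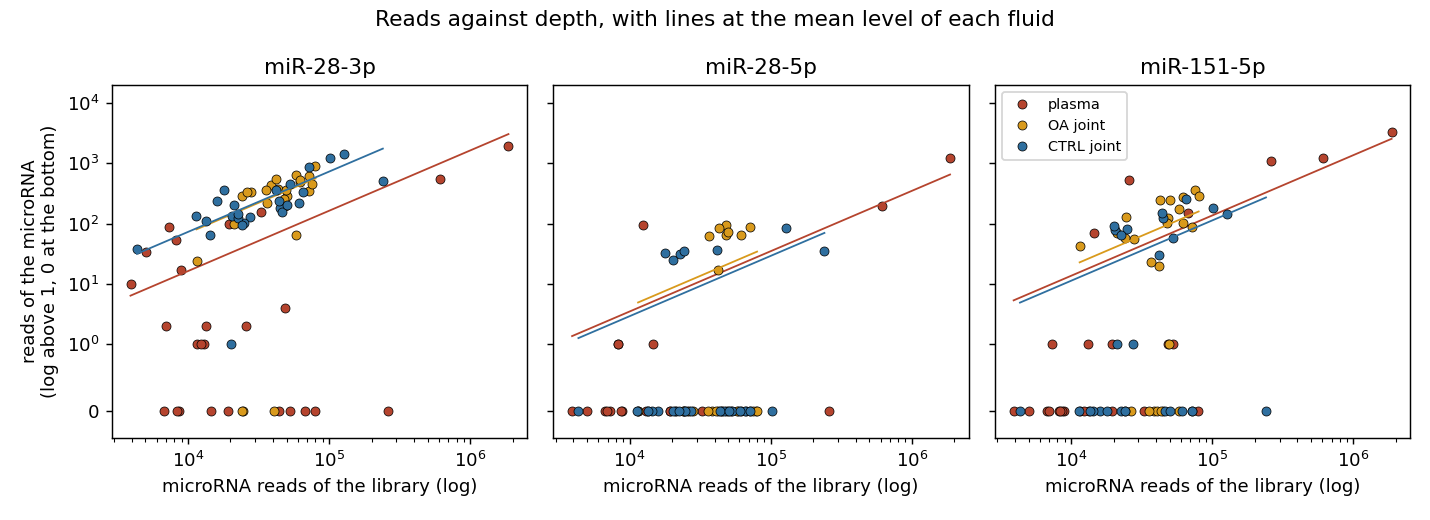
Reads of each microRNA against microRNA reads of the library (both axes log, with 0 reads at the bottom), coloured by fluid; each line gives the reads expected at the mean level of that fluid. Libraries at 0 reads of miR-28-5p and miR-151-5p run across most of the depth range, and most joint libraries with reads of miR-28-5p lie above the lines.

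For miR-28-3p the joint with the higher level also differed between time points. Over the 26 pairs the OA joint was higher in 11 and lower in 15. At time point 56 all 4 OA joints were lower, with means of 7663 CPM in OA joints and 12871 CPM in CTRL joints. Reads of horses 2, 4, 6 and 8 were 904, 100, 221 and 370 in OA joints. Their CTRL joints had 358, 112, 135 and 1455 reads. Here the CTRL libraries of horses 2, 4 and 6 were in lane 1 and the other joint libraries in lane 2. The part of lane was not tested. At time point 10 all 3 OA joints were lower, with means of 2940 CPM in OA joints and 5828 CPM in CTRL joints, and at time point 35 the OA joint was higher in 3 of 4, with means of 10114 CPM in OA joints and 5740 CPM in CTRL joints.

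Summed over the time points after 0, the OA joint over the CTRL joint had a log2 fold of 0.06 (SE 0.30) for miR-28-3p, 1.08 (SE 1.58) for miR-28-5p and 0.79 (SE 0.89) for miR-151-5p in the edgeR fit of 4 sums against 4. The last value rested on horse 2: without that horse it was -0.12. The median log2 fold over the 117 microRNAs tested was -0.03. None of the 3 was called, beside 0% of the 117 by edgeR at the 0.05 threshold. Before adjustment 10 of the 117 lay under 0.05, and DESeq2 called 4 of the 117, none of them one of the 3. With the horse as a block, pairing the joints of a horse, edgeR called 3 of the 117, again none of the 3 described here.

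The horse and the sequencing lane played no part in how the microRNAs were chosen, so they could be tested. Over the 52 joint libraries, with joint and time point in the model, edgeR's adjusted p for differences between the 4 horses was 1.00 for each of the 3 (F of 0.15 for miR-28-3p, 0.084 for miR-28-5p and 0.50 for miR-151-5p). The horse means of miR-28-3p and miR-151-5p in both joints are given above; those of miR-28-5p in horses 2, 4, 6 and 8 were 220, 582, 456 and 458 CPM in OA joints and 331, 205, 408 and 222 CPM in CTRL joints. For miR-151-5p the adjusted p lay between 0.947 and 1 over the 9 settings tried, although its OA mean in horse 2 was the highest of the 4. This test averages each horse over both joints, and a difference confined to the OA joint was not tested. Among all 139 microRNAs tested 0.719% were called, which was 1, miR-342-3p (edgeR adjusted p 0.0224, named after its values were seen). Before adjustment 15 lay under 0.05.

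Over the 26 plasma libraries, with time point in the model, edgeR's adjusted p for horses was 0.994 for miR-28-3p and 0.879 for miR-151-5p, whose horse means ran from 1107 to 2896 CPM and from 21.3 to 3870 CPM. miR-28-5p reached the level set by the filter in too few plasma libraries and was not tested. Among the 92 microRNAs tested 0% were called by edgeR and 0 by DESeq2, and before adjustment 7 lay under 0.05 by edgeR. With libraries this uneven, an adjusted p over the threshold does not show that the horses were alike.

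Lane was tested over the same 52 joint libraries, with joint and time point but not the horse in the model. Most joint libraries in lane 1 were of horse 6, so lane and horse 6 can hardly be told apart. Lane 2 over lane 1 gave a log2 fold of -0.10 for miR-28-3p (SE 0.80, edgeR adjusted p 0.936), -0.88 for miR-28-5p (SE 1.91, edgeR adjusted p 0.866) and 1.71 for miR-151-5p (SE 1.83, edgeR adjusted p 0.731). The median log2 fold over all 139 microRNAs was 0.29, and 0.719% of them were called, which was 1, miR-497 (named after its values were seen), while 17 had an unadjusted p under 0.05. None of the 3 passed the threshold, and the standard error for miR-151-5p leaves a difference of several-fold in either direction within its range. The lane estimate for miR-151-5p was -0.12 (SE 1.87) when horse 8 was left out and 8.96 (SE 5.45) when horse 6 was. Without horse 6, the joint libraries left in lane 1 were the CTRL joints of horses 2 and 4 at time point 56, with 0 reads. The CTRL joint of horse 8 at that time point, in lane 2, had 144 reads. With the horse as a block the lane estimate was 0.58 (SE 2.22) for miR-151-5p, -0.27 (SE 1.26) for miR-28-3p and -1.40 (SE 2.15) for miR-28-5p.

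Across the 52 joint libraries, the microRNAs whose CPM ran most nearly with miR-28-3p, among 65 read in at least 26 of them, were let-7c (Spearman's rho 0.41), miR-146b-5p (0.39) and let-7a (0.32). For miR-151-5p they were miR-10b (0.30), let-7a (0.29) and miR-10a (0.28). miR-28-5p, read in 15 of the 52, was too rare to rank. These are descriptions over libraries that share horses, lanes and a divisor, and the correlations are weak. miR-28-3p and miR-151-5p were read together in 30 of the 52 joint libraries, miR-28-3p alone in 19, miR-151-5p alone in 1 and neither in 2.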

How the data were processed

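Raw read counts per horse microRNA and per synthetic spike-in are what the authors deposited for each library. The files also hold deposited RPM values of a library total, used for the RPM levels and each library total, and a second deposited normalized column, kept here as a score, equal to reads divided by the microRNA sum (largest difference 0 reads). The library kit was TriLink CleanTag, per the labels' protocols. The build EquCab3.0 and the tools Bowtie, cutadapt and edgeR come from the submitters' processing notes, without versions or settings. The notes do not say how reads common to near-identical microRNAs were assigned.

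Counts of horse microRNAs, without spike-ins, were tested with edgeR 4.0.16 in R 4.3.3 (quasi-likelihood F-test after filterByExpr at a minimum count of 10 and TMM scaling; Benjamini-Hochberg adjustment over all microRNAs tested, threshold 0.05). Fluids and joints were compared on counts summed per horse, 4 sums against 4. Horses and lanes were tested over single libraries, which are repeated samples of the same 4 animals, so those p-values measure the spread between libraries. Numbers pair the samples because the same number is the same horse per the labels; the block changed no call of a member. Alternatives were RLE scaling, no filter, DESeq2 1.42.0, limma 3.58.1 on log2(CPM + 1), the horse as a replicate block, lane, left-out horses and left-out libraries. The fits were also run on simulated counts with known changes, drawn independently for each library and with no extra libraries at 0. That run does not show how they behave on microRNAs with many libraries at 0. No 2 libraries had identical counts.

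Named are the 3 microRNAs, relatives on a list, and the 3 microRNAs nearest in correlation; any other name was chosen after its values were seen. The members and all lists were chosen with earlier results of these data known.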

Additional observations from a re-analysis of the deposited data

Results flagged for a closer look

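In 54 groups of 4 horses, each microRNA was examined for a library or horse far from the other 3, and 13 such values were found; chance gives about 1 in 20 groups, and a group with 3 values at or near 0 meets the criterion as soon as 1 library has reads. For miR-28-3p in plasma they were horse 6 at time point 0 with 6552 CPM, horse 8 at 35 with 12285 CPM, horse 4 at 49 with 1910 CPM, and the plasma mean of horse 8 with 2896 CPM.

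For miR-28-5p they were horse 6 in plasma at time point 56 with 7846 CPM, the plasma mean of horse 6 with 1201 CPM, and the CTRL joint of horse 4 at 35 with 1229 CPM. The first of these is the library with 97 reads of the 5p arm and 1 of the 3p arm.

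For miR-151-5p they were, in plasma, horse 8 at time point 35 with 136.5 CPM (1 read), horse 8 at 42 with 20408 CPM, horse 2 at 49 with 2269 CPM and horse 4 at 56 with 76.5 CPM (1 read). In CTRL joints they were horse 8 at time point 0 with 3252 CPM and horse 8 at 56 with 1123 CPM. No value in an OA joint was far from the others by this measure.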

How the results depend on the processing

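The plasma-over-CTRL comparison called 27 microRNAs, against 2 without the microRNA-rich plasma libraries, 1 in lane 1 alone and 8 to 38 with 1 horse left out. With the horse as a replicate block it called 28, and plasma over OA called 29 against 31. OA over CTRL called 0, against 5 with no filter, 4 with DESeq2 and 3 with the replicate block. Differences between horses in joint fluid called 1, against 0 with no filter, with DESeq2 and with lane as a covariate, and 0 to 1 with 1 horse left out. In plasma they called 0, against 1 with no filter, 1 without the rich libraries and 0 to 2 with 1 horse left out. The lane difference called 1, against 2 with no filter, 14 with DESeq2, 0 with the replicate block and 0 to 1 with 1 horse left out. Its sign for miR-151-5p reversed without horse 8; its adjusted p lay between 0.751 and 1 with 1 horse left out. The cause of these changes was not tested.

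In 2 settings chosen after seeing the data, 10 or more reads left 9 plasma libraries with miR-28-3p and 6 with miR-151-5p, and leaving erythrocyte microRNAs out of the divisor gave miR-28-3p 3137 CPM in plasma and 7987 CPM in OA joints and miR-151-5p 1348 CPM in CTRL joints. On that divisor miR-151-5p averaged 2988 CPM in plasma and 2385 CPM in OA joints, and miR-28-5p 675 CPM in plasma and 485 CPM in OA joints, so plasma was above OA for both. Of 93 alternative log2 folds of the 3 microRNAs between fluids or joints, 80 moved by less than 1 standard error of the fit as reported. That standard error was as wide as 2.12, for miR-28-5p in plasma over CTRL, so a large shift could still be counted. Plasma over CTRL in lane 1 alone and without horse 6, where miR-28-3p missed the threshold, are among the 80. Lane folds were not counted.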
